A study of Mus musculus with 156 samples.

Results

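The 34 genes described here are expressed by the endothelial cells that line brain capillaries and form the blood-brain barrier, or are used there. They were listed by name, with earlier results of these data known. Each was represented by its brightest probe, the probe with the highest mean signal over all arrays. All 34 were measured, of 19059 genes with a symbol on the arrays. The arrays held RNA of the striatum of C57Bl/6J mice, males per the methods and 6 to 10 weeks old per the labels. All but the naive mice had received 1 intraperitoneal injection, and tissue was taken at 1, 2, 4 or 8 h. On the first set of chips the injections were tranylcypromine, mianserin or bupropion, all at 20 mg/kg, risperidone at 0.5, clozapine at 3 or haloperidol at 1 mg/kg, saline or 1% Tween 80, beside naive mice. The second set held diazepam at 5 mg/kg, buspirone and hydroxyzine (Hydroxizine in the labels) both at 10 mg/kg, and saline. The RNA on an array was a pool from 2 mice, with 3 arrays per drug at each time. The vehicle was the 6 saline and Tween 80 arrays of the same time on the first set and the 3 saline arrays on the second, and the drugs of a set share these vehicle arrays. Per the methods Tween 80 carried risperidone, clozapine, haloperidol and diazepam, so on the second set diazepam and its suspending agent cannot be told apart. All 6 measured markers of striatal neurons, and 30 of the 34 genes, lay above the median signal of all probes. The 6 arrays that correlated least with their own group (mean correlation 0.954 to 0.966) were all on the second set. In whole striatum, fewer endothelial cells and less RNA per cell cannot be told apart. Nor can the signal of endothelial cells be told from that of other cells that express the same genes. The study itself placed *Slc2a1* in a gene network that it described as strongly enriched in astrocyte genes.

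Brain endothelial cells are sealed to one another by tight junctions, so nutrients enter the brain through transporters in their membranes and many drugs are pumped back into the blood. Angiopoietin and vascular endothelial growth factor receptors govern the growth and quiescence of these cells, and endothelial SOX, ETS and forkhead factors together with Wnt signalling through LEF factors maintain their barrier character. The genes are ordered below by these roles: nutrient transporters, receptors, junction and surface proteins, efflux and organic anion transporters, transcription factors, and secreted or other products.

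The promoters of *Slc2a1*, *Mfsd2a*, *Slc38a5* and *Tek* are shown because these are the genes whose change after tranylcypromine held under every alternative processing tried. Sequences are RefSeq's on GRCm38.p6, from 250 bases before to 50 bases after the start used in its promoter table, which held 22 of the 34 genes. Capitals mark the letters of factor motifs on either strand: CCGGAAG for ETS, AACAAT for SOX, TCAAAG for TCF/LEF, AGATAA for GATA, CCAAT for NF-Y and the glucocorticoid response element, none of which contains another.
Slc2a1 (chr4:119108495-119108794, plus strand): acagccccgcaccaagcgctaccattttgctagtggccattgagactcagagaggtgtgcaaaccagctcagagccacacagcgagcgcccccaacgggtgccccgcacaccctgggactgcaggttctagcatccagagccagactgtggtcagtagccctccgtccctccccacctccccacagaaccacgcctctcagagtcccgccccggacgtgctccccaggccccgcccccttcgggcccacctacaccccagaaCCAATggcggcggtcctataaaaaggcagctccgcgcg
Mfsd2a (chr4:122961139-122961438, minus strand): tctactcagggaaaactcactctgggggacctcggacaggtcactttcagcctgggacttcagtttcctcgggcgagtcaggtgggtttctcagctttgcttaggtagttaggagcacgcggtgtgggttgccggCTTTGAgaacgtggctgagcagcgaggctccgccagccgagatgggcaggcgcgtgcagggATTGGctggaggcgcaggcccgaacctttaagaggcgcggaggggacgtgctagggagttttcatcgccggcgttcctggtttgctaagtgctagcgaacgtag
Slc38a5 (chrX:8271131-8271430, plus strand): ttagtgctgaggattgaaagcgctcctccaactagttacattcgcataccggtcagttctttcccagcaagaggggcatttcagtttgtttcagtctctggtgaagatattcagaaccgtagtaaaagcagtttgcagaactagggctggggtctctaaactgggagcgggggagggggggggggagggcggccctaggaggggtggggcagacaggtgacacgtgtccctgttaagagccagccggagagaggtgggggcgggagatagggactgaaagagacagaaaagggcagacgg
Tek (chr4:94739039-94739338, plus strand): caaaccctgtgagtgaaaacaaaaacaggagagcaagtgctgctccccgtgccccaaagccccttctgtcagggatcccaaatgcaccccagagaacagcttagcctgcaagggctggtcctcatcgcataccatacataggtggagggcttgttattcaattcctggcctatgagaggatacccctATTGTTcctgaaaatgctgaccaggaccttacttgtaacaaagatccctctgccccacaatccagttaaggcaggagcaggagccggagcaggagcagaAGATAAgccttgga
The CCAAT of *Slc2a1* began 12 bases after the start. In *Mfsd2a* the TCF/LEF letters lay 115 bases and the NF-Y letters 54 bases before the start, both on the other strand. *Tek* had SOX letters on the other strand 63 bases before the start and GATA letters 36 bases after it, and none of the 6 motifs was found in the window of *Slc38a5*. Among all 32851 promoters of this length, 37.4% held CCAAT, 16% TCAAAG, 11.2% AGATAA, 10.7% AACAAT, 8.86% CCGGAAG and 0.475% the glucocorticoid response element, so the matches are descriptions of these windows only.

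A gene was called for a drug when limma's moderated F test of the changes at the 4 times, with Benjamini-Hochberg adjustment over all 45279 probes, was below 0.05. Changes are differences of mean log2 signal, drug minus same-time vehicle, with their standard error (SE). After tranylcypromine 8 of the 34 genes were called, 3 higher and 5 lower, where 1.59% of all probes were called, 1.21% higher and 0.373% lower. Mianserin also gave 8, again 3 higher and 5 lower, against 3.26% of all probes (1.71% and 1.55%). Risperidone gave 7, 3 higher and 4 lower, against 1.22% (0.758% and 0.466%). These 23 calls fell on 11 genes: 4 of 6 nutrient transporters, 4 of 5 transcription factors, 2 of 7 junction and surface genes, 1 of 5 receptors, and none of the 4 efflux and organic anion transporters or the 7 secreted and other products. Over the 34 genes the median change at the 4 times lay between -0.07 and 0.02 after tranylcypromine, between -0.11 and -0.06 after mianserin and between -0.12 and -0.01 after risperidone, while the median of all probes stayed between -0.01 and 0.01. Genes of the list were thus called in both directions after each of the 3 drugs. The list was made with earlier results of these data known, so these counts describe it and do not test it. The count after tranylcypromine was 5 without tranylcypromine replicate 2, without saline replicate 1, or with 1 fit and 1 spread for all arrays. That after risperidone was 4 without risperidone replicate 2 or 3, and scaling arrays to a common median in place of quantile normalization gave 4 after risperidone and 5 after mianserin.

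**Figure D1:**
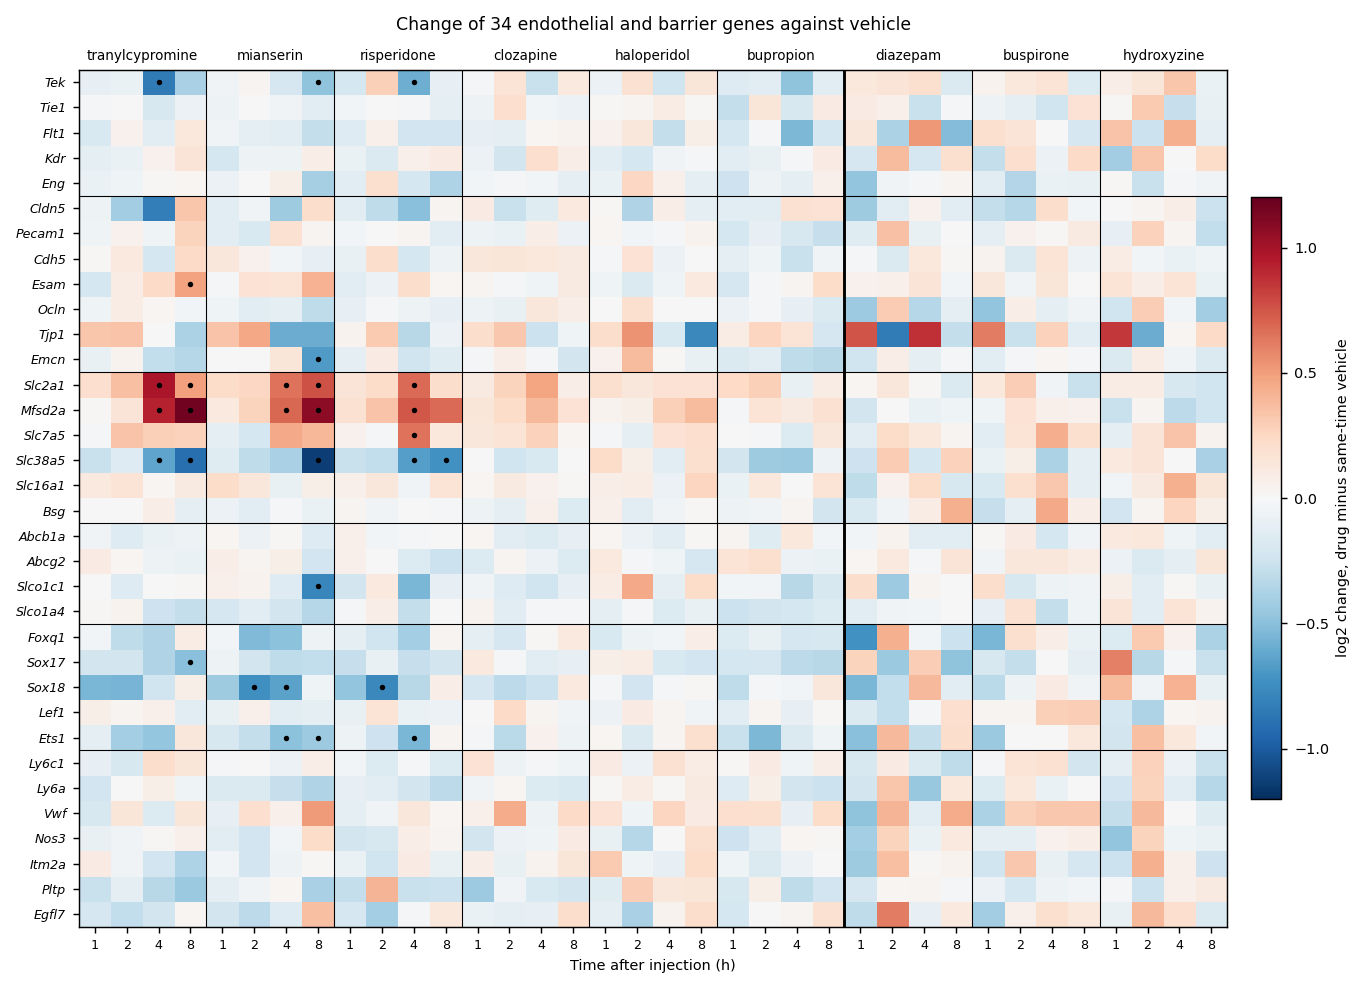
Change of each of the 34 genes (rows, ordered by role) against same-time vehicle at 1, 2, 4 and 8 h (columns) after each of 9 drugs, on the log2 scale, with red higher and blue lower. Dots mark an adjusted p below 0.05 in the test of that single time, and the thick line separates the chip sets. The dots lie after tranylcypromine, mianserin and risperidone, mostly in the rows of *Slc2a1*, *Mfsd2a* and *Slc38a5*.

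*Slc2a1*, which encodes the glucose transporter of the barrier, was higher after all 3 of these drugs. At 4 h the log2 signal on the tranylcypromine arrays was 13.58, 13.42 and 13.28, against 12.36 to 12.59 (median 12.41) on the 6 vehicle arrays. Mianserin arrays measured 13.34, 13.02 and 12.91 at that time and risperidone arrays 13.19, 13.07 and 13.11. Every array of the 3 drugs lay above every vehicle array. The changes were 0.98 (SE 0.11, fold 1.98) after tranylcypromine, 0.65 (fold 1.57) after mianserin and 0.68 (fold 1.6) after risperidone. At 8 h the signal after mianserin was 13.22, 13.14 and 13.32, above all vehicle arrays (12.23 to 12.83), with a change of 0.76. After tranylcypromine it was 13.09, 13.03 and 12.75, which overlapped the vehicle range, with a change of 0.49. Risperidone arrays measured 12.40, 13.01 and 12.61, of which 2 lay inside the vehicle range and 1 above it, a difference of 0.21 (single-time adjusted p = 1). Over the 4 times the adjusted p was 5.2e-12 for tranylcypromine, 4.4e-10 for mianserin and 3.6e-05 for risperidone. The last of these calls was lost under median scaling (change at 4 h 0.48, adjusted p = 0.22).

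*Mfsd2a*, the carrier that brings lysophosphatidylcholine with docosahexaenoic acid into the brain and holds back transcytosis, was also higher after all 3 drugs. At 4 h its signal was 11.84, 11.62 and 12.16 after tranylcypromine, 11.82, 11.86 and 11.23 after mianserin, and 11.82, 11.70 and 11.57 after risperidone, against 10.74 to 11.10 (median 10.96) on vehicle arrays. At 8 h the 3 tranylcypromine arrays were at 12.16, 12.15 and 12.15 and the 3 mianserin arrays at 12.12, 12.05 and 12.06, with vehicle arrays at 10.75 to 11.46 (median 10.88). Risperidone arrays were then at 11.62, 11.81 and 11.62. All drug arrays at both times lay above all vehicle arrays. The change at 8 h was 1.15 (SE 0.15, fold 2.22) after tranylcypromine and 1.07 (fold 2.11) after mianserin. After risperidone it was 0.75 at 4 h (fold 1.68) and 0.68 at 8 h, where the single-time test gave an adjusted p of 0.053. The calls over the 4 times (adjusted p = 3.9e-11, 5.8e-09 and 6.1e-06 for tranylcypromine, mianserin and risperidone) held under all 18 alternatives run for each.

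*Slc38a5*, a glutamine transporter of the system N family that is rich in brain capillaries, moved the other way. After mianserin it was 9.42, 9.23 and 9.23 at 4 h, where 1 of the 3 lay inside the vehicle range (9.29 to 9.90, median 9.75), and 8.71, 8.52 and 8.26 at 8 h, below all of them (9.35 to 9.78, median 9.68). The change at 8 h was -1.13 (SE 0.14, fold 0.456). After tranylcypromine the arrays at 8 h were at 8.89, 8.18 and 9.09 (change -0.91, fold 0.534), and after risperidone at 8.81, 8.90 and 8.99 (change -0.73, fold 0.604), again all below the vehicle range. At 4 h the change was -0.63 after tranylcypromine and -0.66 after risperidone. The adjusted p over the 4 times was 4e-09 for mianserin, 7.8e-08 for tranylcypromine and 1.8e-06 for risperidone, and all 18 alternatives run for each kept the calls. Without tranylcypromine replicate 2, whose array at 8 h was the lowest, the change at 4 h was -0.47 and its single-time call was lost (adjusted p = 0.21), while the call over the 4 times stood.

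*Slc7a5*, the light chain of the large neutral amino acid transporter, was called after mianserin (adjusted p = 0.012) and risperidone (0.017). Its 4 h signal was 12.48, 12.73 and 12.98 after risperidone and 12.66, 12.48 and 12.45 after mianserin, all above the vehicle arrays (11.97 to 12.24, median 12.04). The changes were 0.65 (SE 0.13, fold 1.57) and 0.45 (fold 1.37). After tranylcypromine the arrays at 4 h read 12.28, 12.42 and 12.41, also above the vehicle range, with a change of 0.29 that did not pass (adjusted p over the 4 times 0.16). Both calls were lost with the chip as a fixed block (adjusted p = 0.12 and 0.062) and under median scaling. The risperidone call was also lost against its own vehicle, Tween 80, alone. Leaving out risperidone replicate 2 or 3, Tween 80 replicate 2 or saline replicate 3 lost it too. The mianserin call was also lost without mianserin replicate 1. *Slc16a1*, a monocarboxylate transporter, and *Bsg*, which escorts such transporters to the membrane, were not called for any drug. Their changes ran from -0.30 to 0.43 and from -0.28 to 0.45 over the 36 comparisons. The probes had mean log2 signals of 7.86 and 8.10, above 31.4% and 53.9% of all probes, so changes may not have been detectable.

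**Figure D2:**
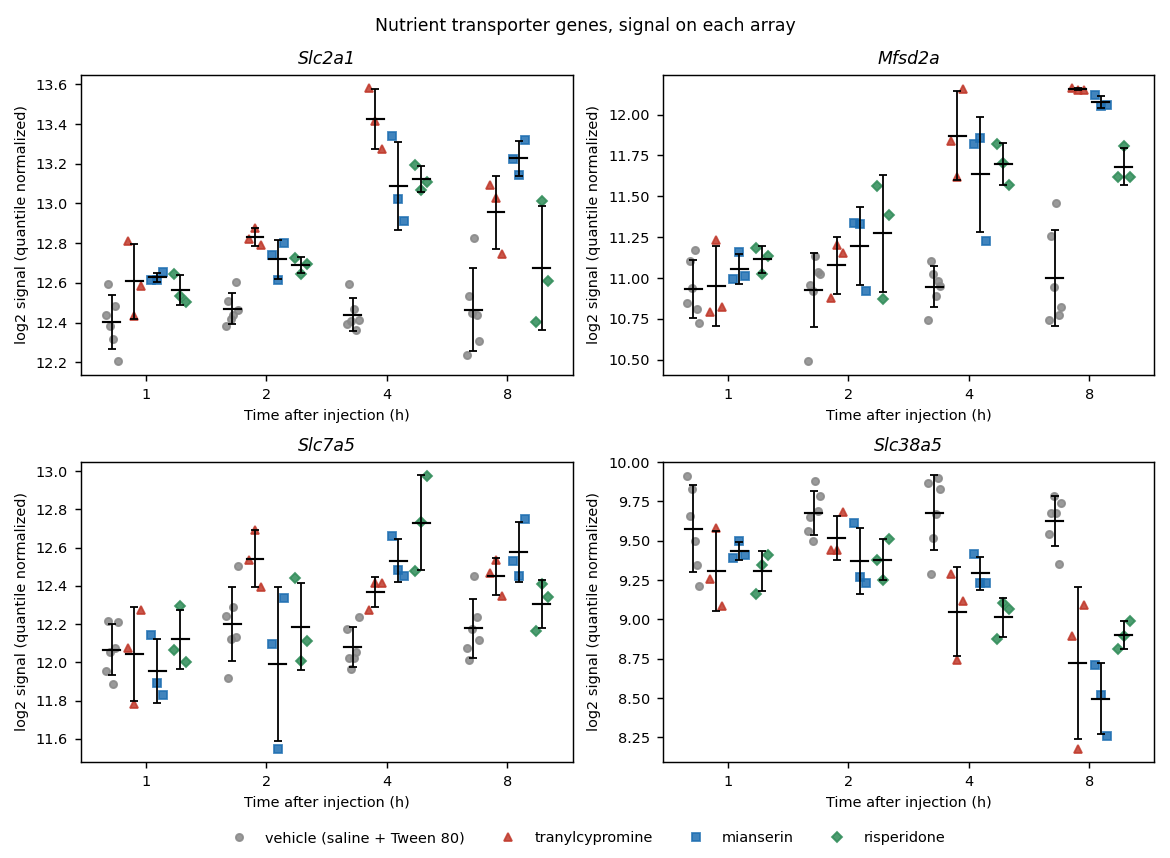
Log2 signal (quantile normalized, vertical axes) of 4 nutrient transporter genes at 1, 2, 4 and 8 h on each array of vehicle, tranylcypromine, mianserin and risperidone. Points are arrays, horizontal bars the mean and whiskers 1 SD. At 8 h *Mfsd2a* lies above 12 on every tranylcypromine and mianserin array, and *Slc38a5* lies below the vehicle arrays after all 3 drugs.

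Whether a change differed between the 4 times was tested in the same fit. After tranylcypromine it differed for *Slc2a1* (adjusted p = 0.0097), whose change went from 0.21 at 1 h to 0.98 at 4 h and 0.49 at 8 h, and for *Mfsd2a* (0.00026), whose change went from 0.02 at 1 h to 1.15 at 8 h. After mianserin it differed for *Mfsd2a* (0.021), *Slc38a5* (0.0076) and *Emcn* (0.027). These were 2 of 34 genes where 0.395% of all probes passed and 3 of 34 where 0.479% passed. For risperidone no member passed (0.203% of all probes did; 10 of the 34, and 6.58% of all probes, had an unadjusted p below 0.05), so no order of times is drawn for it. Single-time tests called 4 of the 34 at 4 h and 5 at 8 h after tranylcypromine (0.448% and 1.53% of all probes). After mianserin they called 1 at 2 h, 4 at 4 h and 7 at 8 h (0.479%, 1.31% and 1.34%). For risperidone the counts were 1 at 2 h, 6 at 4 h and 1 at 8 h (0.298%, 1.16% and 0.0133%).

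Among the receptors, *Tek*, which encodes the angiopoietin receptor TIE2, was lower. On the tranylcypromine arrays at 4 h it was at 8.71, 9.10 and 9.14, against 9.57 to 10.21 (median 9.82) on vehicle arrays, and on the risperidone arrays at 9.36, 8.97 and 9.41. None of these 6 arrays reached the lowest vehicle array. The change was -0.85 (SE 0.14, fold 0.554, adjusted p over the 4 times 2.4e-05) after tranylcypromine and -0.59 (fold 0.666, adjusted p = 0.017) after risperidone. The risperidone call was lost without risperidone replicate 2 (change -0.45, adjusted p = 0.49) or replicate 3, without Tween 80 replicate 2 or saline replicate 3, and under median scaling. After mianserin *Tek* measured 9.34, 9.21 and 8.87 at 8 h, below the vehicle arrays (9.42 to 9.80), with a change of -0.48, but it was not called over the 4 times (adjusted p = 0.14). The other receptors were not called for any drug, though the *Kdr* probe (mean log2 signal 8.08) may be too dim for a call. Over the 36 comparisons their changes lay between -0.28 and 0.31 for *Tie1*, the partner receptor of TIE2, between -0.54 and 0.52 for *Flt1* and between -0.42 and 0.38 for *Kdr*, both receptors of vascular endothelial growth factor, and between -0.48 and 0.25 for *Eng*, a co-receptor of the transforming growth factor family.

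Of the junction and surface genes, *Emcn*, an endothelial sialomucin, was lower after mianserin at 8 h. The 3 arrays were at 9.53, 9.55 and 9.36, below all vehicle arrays (9.93 to 10.32, median 10.19), a change of -0.68 (SE 0.13, fold 0.624, adjusted p over the 4 times 0.003). At 1, 2 and 4 h its changes were -0.01, 0.00 and 0.14. Without mianserin replicate 3 the change was -0.62 and the adjusted p over the 4 times 0.059, and under median scaling it was 0.075. *Esam*, an adhesion molecule of endothelial junctions, was called after tranylcypromine, where the arrays at 8 h were at 11.62, 11.64 and 11.19 and 1 of the 3 lay within the vehicle range (10.75 to 11.29). Its change of 0.48 (SE 0.13, adjusted p over the 4 times 0.046) was called in 8 of 18 alternatives. The call was lost without tranylcypromine replicate 1 or 2, Tween 80 replicate 2 or 3, or any of the saline replicates. The other losses were with 1 fit of all arrays, median scaling and the chip as a fixed block.

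*Cldn5*, the main claudin of the barrier's tight junctions, was just outside the threshold. At 4 h after tranylcypromine it measured 10.70, 10.38 and 11.02, below the vehicle arrays (11.25 to 11.89, median 11.50), and the difference was -0.83 (SE 0.22, fold 0.562) with an adjusted p over the 4 times of 0.054. At 8 h the arrays spread from 11.06 to 12.24, over the vehicle range of 11.13 to 11.53. *Tjp1*, which encodes the junction scaffold ZO-1, had the widest changes of the uncalled genes, from -0.84 at 2 h to 0.87 at 4 h after diazepam, on arrays that overlapped. Its 3 diazepam arrays at 4 h measured 8.60, 9.17 and 9.68, the 3 saline arrays 7.69, 8.41 and 8.73, with an SE of 0.44 (adjusted p = 0.54). The smallest adjusted p of *Tjp1* over the 4 times for any drug was 0.057, also near the threshold. After mianserin its change was 0.34 at 1 h, from which those at 4 and 8 h differed by -0.94 and -0.93. In limma's test between the 4 times this did not pass (adjusted p = 0.097). *Ocln*, *Cdh5*, which encodes VE-cadherin, and *Pecam1* were not called for any drug, with changes from -0.47 to 0.36 over the 36 comparisons.

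None of the efflux and organic anion transporters was called over the 4 times. The efflux pump genes *Abcb1a*, which encodes P-glycoprotein, and *Abcg2* changed by -0.21 to 0.13 and by -0.26 to 0.19 over all drugs and times. Their probes were dim, with mean log2 signals of 7.76 and 7.72, above only 12.5% and 6.99% of all probes, so a change of these genes may not have been detectable. *Slco1c1*, a thyroxine transporter of the barrier, measured 10.37, 10.11 and 9.56 at 8 h after mianserin, below all vehicle arrays (10.497 to 11.043, median 10.825). The change was -0.78 (SE 0.19, fold 0.581, single-time adjusted p = 0.014), but the test over the 4 times gave an adjusted p of 0.075, and without mianserin replicate 3 the change was -0.56 (single-time adjusted p = 0.28). *Slco1a4*, an organic anion transporter, lay between -0.34 and 0.18.

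All calls among the transcription factor genes were toward lower signal. *Sox18*, an endothelial SOX factor, measured 8.96, 8.86 and 8.91 at 2 h after mianserin and 9.13, 8.83 and 8.67 after risperidone, against 9.43 to 9.94 (median 9.66) on vehicle arrays. The tranylcypromine arrays at 2 h were at 9.19, 8.91 and 9.18. All 9 arrays of the 3 drugs were below all 6 vehicle arrays. The changes at 2 h were -0.74 (SE 0.15, fold 0.599) after mianserin, -0.77 (fold 0.586) after risperidone and -0.55 (fold 0.681) after tranylcypromine. At 1 h they were -0.43, -0.48 and -0.55 in the same order, and at 4 h after mianserin the change was -0.64. Single-time calls were made for mianserin at 2 and 4 h and risperidone at 2 h, and not for tranylcypromine. With saline alone as vehicle the mianserin call at 2 h was lost (adjusted p = 0.19). The risperidone call at 2 h was lost under median scaling or without risperidone replicate 3. At 8 h the changes after mianserin, risperidone and tranylcypromine were -0.05, 0.08 and 0.07. The arrays overlapped, and tranylcypromine replicate 2 (8.71) lay far below replicates 1 and 3 (9.71 and 9.61). In limma's test between the 4 times the change of *Sox18* did not differ after any of these drugs (adjusted p = 0.24, 0.24 and 0.3). The adjusted p over the 4 times was 6.6e-06 for mianserin, 0.00019 for risperidone and 0.0035 for tranylcypromine, and the tranylcypromine call was lost without its replicate 3 (0.053). On vehicle arrays *Sox18* itself was 0.29 lower at 8 h than at 1 h (unadjusted p = 0.017 over the times, adjusted p = 0.35).

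*Ets1*, an ETS factor of endothelial and other cells, was called after all 3 drugs. At 4 h it measured 9.11, 9.21 and 9.16 after mianserin, 8.995, 9.138 and 9.197 after risperidone and 9.29, 9.16 and 9.11 after tranylcypromine, and every array was below the vehicle arrays (9.34 to 9.90, median 9.65). The changes were -0.49 (SE 0.12), -0.55 and -0.47, with adjusted p over the 4 times of 0.00037, 0.023 and 0.0073. At 4 h the single-time tests called *Ets1* after mianserin and risperidone but not after tranylcypromine. The next brightest of its 4 probes was much dimmer, with a mean log2 signal of 7.86 against 9.87, a level at which such a change may not be detectable. Its changes at 4 h were -0.01, -0.11 and -0.13 (adjusted p over the 4 times 0.48, 0.95 and 0.82). On the brightest probe the mianserin call was kept under all alternatives. The tranylcypromine call was lost without its replicate 2 or 3 or saline replicate 1, and with saline alone as vehicle. Leaving out any 1 risperidone replicate, Tween 80 replicate 3 or saline replicate 1 lost the risperidone call. Both of these calls were also lost with 1 fit and 1 spread for all arrays. *Sox17*, the close relative of *Sox18*, was called after tranylcypromine. It measured 8.74, 8.64 and 8.77 at 8 h, below the vehicle arrays (8.96 to 9.42, median 9.25), a change of -0.50 (SE 0.13, fold 0.709, adjusted p over the 4 times 0.0054). On its next brightest probe the change was -0.28 (adjusted p = 0.28). Its call was lost without tranylcypromine replicate 2 (0.14) or saline replicate 1 (0.058). It was also lost with saline alone as vehicle, and with 1 fit and 1 spread for all arrays. *Foxq1*, a forkhead factor of brain endothelium, was called after mianserin (adjusted p over the 4 times 0.026). Its arrays at 2 h were at 8.58, 8.92 and 9.23 against vehicle arrays of 9.28 to 9.52 (median 9.48), a change of -0.53. No single-time test called it for any drug (smallest adjusted p = 0.11). The call over the 4 times was kept in 8 of 18 alternatives. It was lost without mianserin replicate 1 or 2, Tween 80 replicate 2 or 3, or saline replicate 1 or 3. The other losses were with saline alone as vehicle, 1 fit of all arrays, median scaling and the chip as a fixed block. *Lef1*, which carries Wnt signals to DNA, was not called, with changes from -0.37 to 0.29 over all drugs and times. Its brightest probe had a mean log2 signal of 8.01, above 48.3% of all probes, so a change may not have been detectable.

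**Figure D3:**
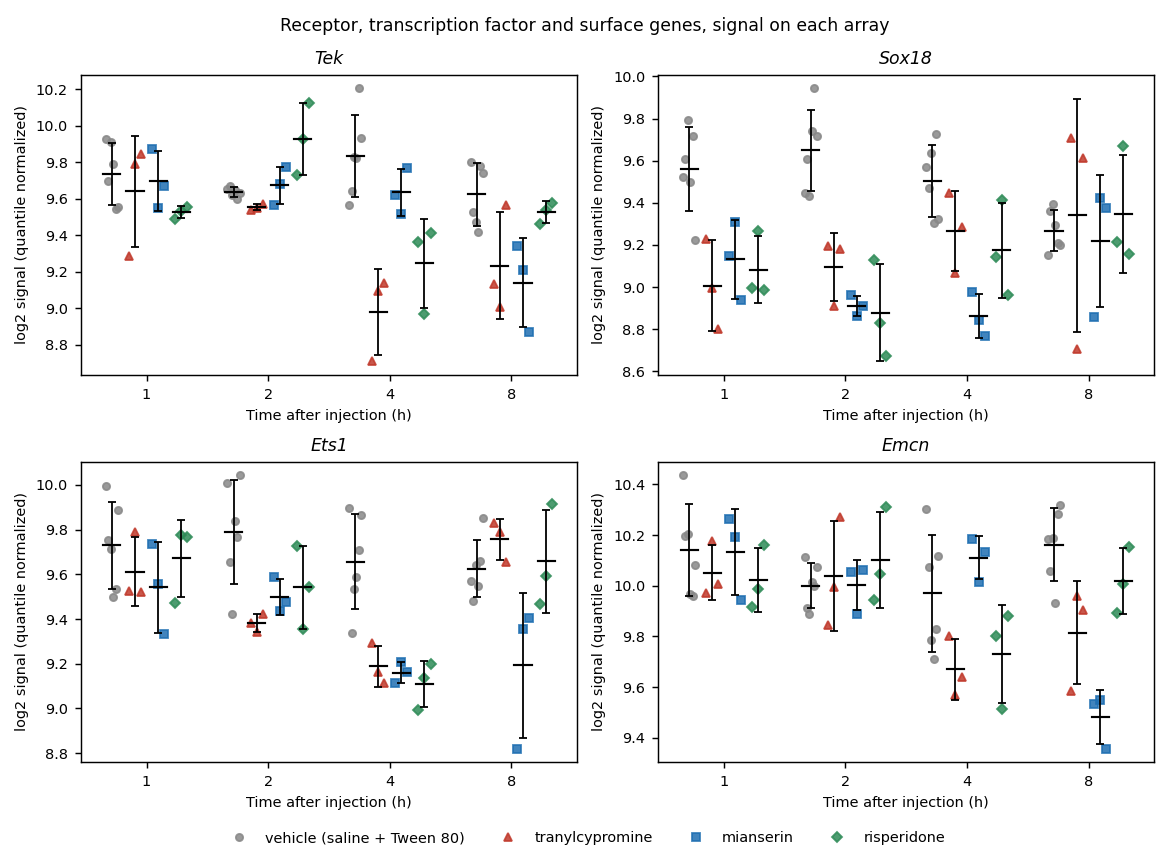
Log2 signal (quantile normalized, vertical axes) of *Tek*, *Sox18*, *Ets1* and *Emcn* at 1, 2, 4 and 8 h on each array of vehicle, tranylcypromine, mianserin and risperidone. Points are arrays, horizontal bars the mean and whiskers 1 SD. *Sox18* lies below the vehicle arrays at 2 h after all 3 drugs, *Tek* at 4 h after tranylcypromine and risperidone, and *Emcn* at 8 h after mianserin.

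The 7 secreted, enzyme and surface genes gave no call for any drug: *Vwf*, the clotting factor stored in endothelial cells, *Nos3*, the endothelial nitric oxide synthase, *Egfl7*, *Pltp*, *Ly6c1*, *Ly6a* and *Itm2a*. Their changes over the 36 comparisons ran from -0.48 to 0.61. The value nearest to a call was that of *Egfl7*, with an adjusted p over the 4 times of 0.063.

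Differences between mianserin and tranylcypromine were tested directly, array against array, without the shared vehicle. None of the 34 genes passed over the 4 times, where 2.42% of all probes did, and 7 of the 34 had an unadjusted p below 0.05 (11.7% of all probes). *Tek* came nearest (adjusted p = 0.075), and at 4 h it was 0.65 (SE 0.16) higher after mianserin than after tranylcypromine (single-time adjusted p = 0.015). Arrays of 1 chip deviated together (correlation 0.23), and *Tek* was called over the 4 times with the chip as a fixed block (0.80 at 4 h, adjusted p = 0.0027) or a random block (0.69, adjusted p = 0.014), and among probes above the median signal (adjusted p = 0.043). The fixed block also called *Ly6a* (-0.38 at 8 h, adjusted p = 0.037). At 8 h the single-time tests without a block had *Ets1* 0.56 (SE 0.14, adjusted p = 0.013) and *Slco1c1* 0.80 (SE 0.22, adjusted p = 0.034) lower after mianserin, neither of them called over the 4 times (0.1 and 0.19). For *Slc2a1*, *Mfsd2a* and *Slc38a5* none of these fits gave a call over the 4 times, which does not show that the drugs acted alike. Between mianserin and risperidone none of the 34 passed either, with 0.186% of all probes called and 7 of the 34 at an unadjusted p below 0.05 (6.77% of all probes). At 8 h *Slc2a1* was 0.55 (SE 0.13) higher after mianserin than after risperidone in the single-time test (adjusted p = 0.021), though not over the 4 times (0.24).

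The other 6 drugs gave no call among the 34 genes. Their median changes over these genes lay between -0.19 (diazepam at 1 h) and 0.10 (hydroxyzine at 2 h). After bupropion the median was lower than vehicle at each time, from -0.15 at 1 h to -0.03 at 2 h. The median of all probes stayed between -0.02 and 0.02 for these drugs. At an unadjusted p below 0.05 in limma's F test there were 9 of 34 after bupropion, 4 after clozapine and 6 after haloperidol, where 4.43%, 4.45% and 6.82% of all probes had such a p and 0%, 0.0508% and 0.13% were called. On the second chip set the counts were 8 after diazepam, 1 after buspirone and 3 after hydroxyzine, with 13.1%, 3.96% and 4.92% of all probes at that p and 0.00221%, 0.00442% and 0% called. After clozapine *Slc2a1* measured 12.87, 12.70 and 13.16 at 4 h, above all vehicle arrays, a difference of 0.47 with a single-time adjusted p of 0.1 (0.17 over the 4 times). *Mfsd2a* differed from vehicle by 0.39 at 4 h after clozapine and by 0.38 at 8 h after haloperidol, with arrays that overlapped. On the second set its differences lay between -0.31 and 0.18 and those of *Slc38a5* between -0.39 and 0.30. The spread among arrays of a group was larger on the second set for 26 of the 34 genes and for 82.7% of all probes, and fewer vehicle arrays were at hand there, so small changes were harder to detect.

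**Figure D4:**
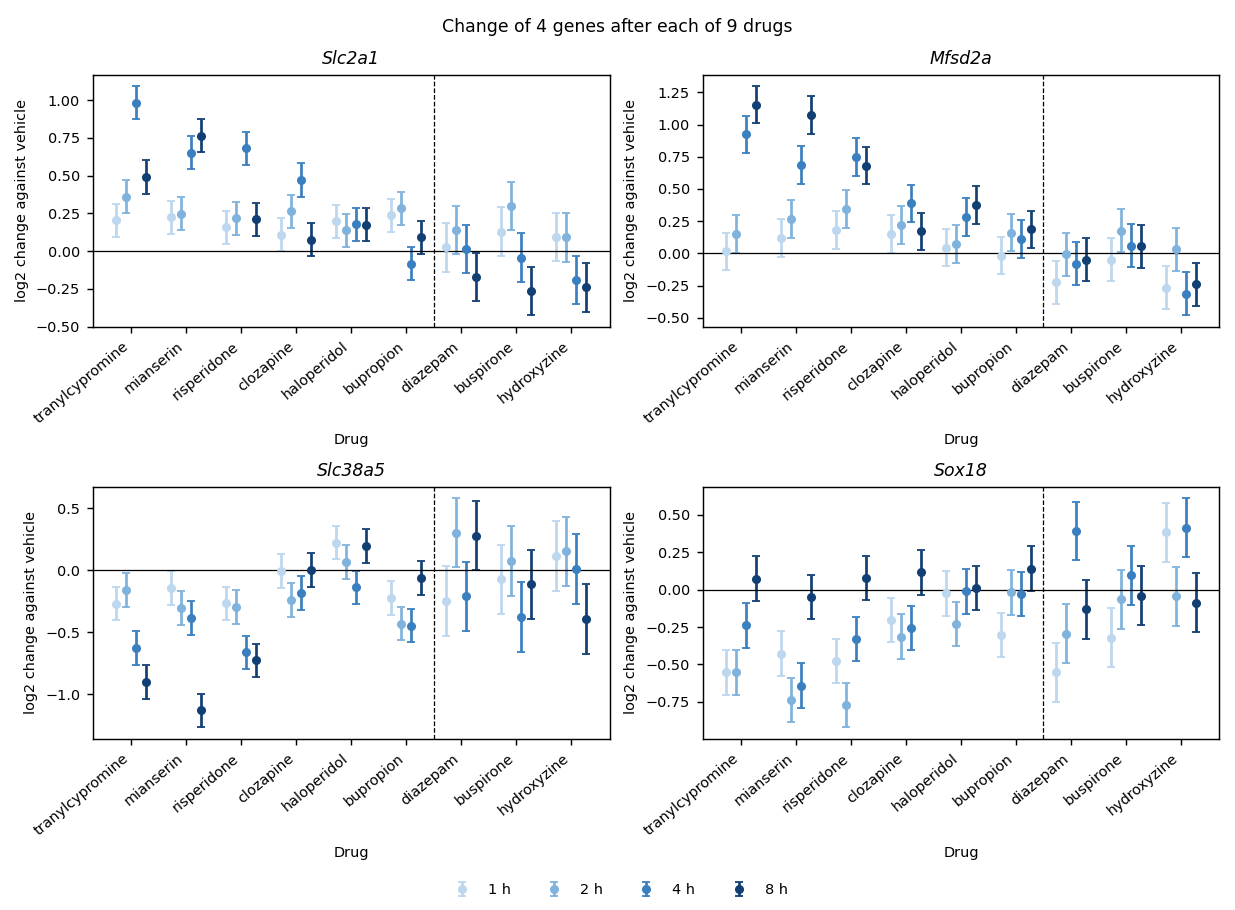
Change against same-time vehicle on the log2 scale (vertical axes) of *Slc2a1*, *Mfsd2a*, *Slc38a5* and *Sox18* after each of 9 drugs, in shades from 1 h (light) to 8 h (dark). Points are the limma estimates and whiskers 1 SE, and the dashed line separates the chip sets. The values furthest from 0 lie after tranylcypromine, mianserin and risperidone, up to 1.15 for *Mfsd2a* and down to -1.13 for *Slc38a5*.

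The controls themselves gave no call among the 34 genes. In limma's test of vehicle against naive arrays 0% of all probes were called (1 of 34 genes and 3.28% of all probes at an unadjusted p below 0.05), and likewise 0% between Tween 80 and saline arrays (1 of 34 and 5.06%). Over time within vehicle arrays 0.583% of all probes were called but none of the 34, 6 of which had an unadjusted p below 0.05 (9.64% of all probes). On the naive arrays *Slc2a1* lay between 12.22 and 12.65, *Mfsd2a* between 10.67 and 11.10 and *Slc38a5* between 9.64 and 10.19, so the drug arrays at 8 h named above for *Mfsd2a* and *Slc38a5* were outside the naive range as well.

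Further genes of the same biology were counted from 4 lists, also made with earlier results of these data known. Of 20 angiopoietin, VEGF and Notch signalling genes, 3 were called higher after tranylcypromine and none lower. *Angpt2*, a ligand of TIE2, rose by 1.48 (SE 0.15) at 8 h (adjusted p over the 4 times 3.9e-13). *Vegfa*, the growth factor, was called over the 4 times (0.0035), with changes of 0.45, 0.49, 0.34 and 0.26 at 1, 2, 4 and 8 h. No single time passed for it (adjusted p = 0.2 at 2 h). *Notch4*, an endothelial Notch receptor, rose by 0.64 at 8 h (adjusted p over the 4 times 0.0031). *Notch4* was also called higher after mianserin (0.71 at 8 h, adjusted p = 0.0018) and risperidone (0.66 at 4 h, 0.025), and *Nrp1*, a co-receptor for VEGF, lower after mianserin (-0.49 at 8 h, 0.045). None of 15 measured endothelial Wnt genes was called after the 3 drugs. Of 12 other junction genes only *F11r*, which encodes the junction molecule JAM-A, was called, lower after mianserin (-0.43 at 8 h, adjusted p = 0.0032). Of 20 other barrier transporters and transport genes 3 were called, all lower after mianserin: *Cav1*, the caveolar protein (-0.65 at 8 h, adjusted p = 0.011), *Slc39a10*, a zinc transporter (-0.72 at 8 h, 0.019), and *Slc40a1*, the iron exporter (-0.56 at 4 h, 0.042). The median changes of these 4 lists lay between -0.14 and 0.13 for the 3 drugs at every time. Summed linear signal, which the brightest genes dominate, was compared for every combination of the 4 lists, the 3 drugs and the 4 times. It lay clear of vehicle in 5 of these cases. How often lists of other genes would do so was not tested, so the count is a description only. The other barrier transporters summed to 33580 to 35534 at 4 h after tranylcypromine (vehicle 37702 to 39502) and to 34845 to 37353 at 8 h (vehicle 38369 to 42413). The other junction genes summed to 12290 to 13566 at 8 h after mianserin (vehicle 14478 to 17456) and to 12574 to 13722 at 4 h after risperidone (vehicle 14335 to 16975). These were lower than vehicle, while the angiopoietin and VEGF list was higher at 1 h after mianserin (22109 to 23299 against 20960 to 22050).

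Markers of other cells were read beside these results. Their summed signals were compared with vehicle for each list, the 3 drugs and the 4 times, and all sums clear of vehicle are given. None of the 10 pericyte and smooth muscle, 3 red blood cell and 6 choroid plexus markers was called after the 3 drugs. The summed linear signal of the choroid plexus markers varied widely, from 4849 to 72172 on vehicle arrays. Red blood cell markers summed to 31312 to 34654 at 1 h after risperidone (vehicle 37389 to 52150) and to 31584 to 34855 at 2 h (vehicle 42454 to 56148), below vehicle both times. The 5 oligodendrocyte markers summed to 133460 to 136495 at 4 h after tranylcypromine, above vehicle (122702 to 132341). The 10 pericyte markers summed to 9670 to 11769 at 8 h after mianserin against 7291 to 9613 in vehicle. Microglial markers were below vehicle at 8 h: their 7 genes summed to 6205 to 7494 after mianserin and 6420 to 8018 after tranylcypromine, against 8980 to 10375 on vehicle arrays. Of these, *P2ry12*, a purine receptor of resting microglia, was called lower after both drugs (-1.26 and -1.21 at 8 h). *Cx3cr1*, the fractalkine receptor, was called lower after tranylcypromine, with its largest change at 4 h (-0.67) and -0.36 at 8 h. Risperidone arrays summed to 7414 to 8357 at 4 h (vehicle 8520 to 10466) and 8373 to 8543 at 8 h, also below vehicle, with no microglial gene called. Single calls fell on *Gjb6* of 7 astrocyte markers (higher) and *Opalin* of 5 oligodendrocyte markers (lower) after tranylcypromine, and on *Penk* of 6 striatal neuron markers after mianserin. The part of these cells in the changes of the barrier genes was not tested.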

How the data were processed

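RNA of striatum was measured on 156 Illumina MouseWG-6 arrays on 26 chips. The authors deposited log2 signal for 45281 probes in a table without normalization and in one after quantile normalization. The methods name BeadStudio for reading the signal and list background subtraction, quantile normalization, a log2 step and z-scores after it. Neither deposited log2 table is in z-scores, and whether background had been subtracted from the first is not given in the sources used here. No detection p-values were used, so how far a probe lay over background was not judged. Precision is limited by how many arrays there were.

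Quantile normalization of the first table, all arrays together, used limma 3.58.1 under R 4.3.3 with statmod 1.5.0, and 2 probes lacking a value were dropped. A linear model with drug by time as groups was fitted to each chip set apart (108 and 48 arrays), since their spread differs (median residual SD 0.142 and 0.189), with the prior variance following mean signal. Drugs were compared with same-time vehicle of their own set. Adjusted p-values are by Benjamini and Hochberg over all 45279 probes, at a false discovery rate of 5%. No array was identical to another and none was dropped. Correlations between arrays of a group were 0.947 or higher (median 0.987). The fits were first tested on simulated data.

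Genes were named from the platform annotation, and 2 (*Slc7a5* and *Ly6a*) from the study's own probe table. Of the 34 genes, 21 had 1 probe and 13 several, and 30 lay above the median signal of all probes. The members and lists were chosen with earlier results of these data known. Values per array are given for genes called for any drug and, of those not called, for the 3 with the largest change. In 0 of 36 comparisons did every drug array share a chip with a vehicle array of its time, so no comparison was made within chips, and the chip was tried as a fixed and as a random block instead. The other alternatives were 1 fit of all arrays, median scaling, the authors' normalized table, the own vehicle alone, a filter on dim probes, an offset of 100 units, the next brightest probe, the replicate number as a block and leaving out each replicate. Figures were drawn with matplotlib.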

Additional observations from a re-analysis of the deposited data

Results flagged for a closer look

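On 5 occasions 1 of the 6 vehicle arrays of a time stood apart from the others for a gene of the list, out of 136 groups looked at, where chance flags about 1 in 20. *Kdr* was at 8.473 on Tween 80 replicate 3 at 2 h, with the others between 7.843 and 8.07. *Mfsd2a* was at 10.49 on saline replicate 1 at 2 h (others 10.92 to 11.13), and *Tjp1* at 9.493 on Tween 80 replicate 1 at 2 h (others 10.14 to 10.28). *Pltp* was at 8.815 on Tween 80 replicate 2 at 1 h (others 9.138 to 9.272) and *Lef1* at 8.128 on Tween 80 replicate 2 at 4 h (others 7.916 to 7.988).

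In limma's test of a difference between the 4 times, the change against vehicle differed after tranylcypromine for *Slc2a1* (adjusted p = 0.0097) and *Mfsd2a* (0.00026). After mianserin it differed for *Mfsd2a* (0.021), *Slc38a5* (0.0076) and *Emcn* (0.027).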

How the results depend on the processing

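Of the 23 calls over the 4 times, 11 held under every alternative: *Mfsd2a* and *Slc38a5* after all 3 drugs, *Slc2a1* after tranylcypromine and mianserin, *Sox18* after mianserin and risperidone, and *Tek* after tranylcypromine. Of 29 single-time calls 7 did. Among the calls of both kinds, 39 held with the own vehicle alone and 13 were lost. The count of genes called after tranylcypromine was 5 in the fit of all arrays with 1 spread. Under median scaling it was 5 after mianserin, 4 after risperidone and 1 after haloperidol. After diazepam the fit with 1 spread called 9, where the set's own spread called 0. In simulated data 1 spread for both sets called many unchanged probes for diazepam, so that count is not read as a result. The shares of all probes called under the alternatives, the replicate block among them, are not given here. Their counts therefore describe only how stable the calls were. Between mianserin and tranylcypromine, 2 genes (*Tek* and *Ly6a*) were called with the chip as a fixed block, 1 (*Tek*) with it as a random block and 1 (*Tek*) among probes above the median signal. The cause was not tested. Leaving out 1 replicate gave 5 to 8 genes after tranylcypromine (lowest without tranylcypromine replicate 2 and saline replicate 1) and 4 to 7 after risperidone (lowest without its replicate 2 or 3). It gave 7 to 9 after mianserin and 0 in the other comparisons. The change of *Ets1* at 8 h after mianserin was 0.11 on its next brightest, much dimmer probe (adjusted p = 0.68), opposite in sign to its brightest.

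Replicate numbers did not pair the arrays: deviations from group means correlated at -0.0037 between groups for the same number, 0.0021 for other numbers and 0.23 within a chip. With the replicate block the counts were 9 after tranylcypromine, 8 after mianserin and 7 after risperidone, and 0 for the others on the first set. The single-time calls of *Tek* (adjusted p = 0.051) and *Ets1* (0.052) at 8 h after mianserin were lost. No paired analysis was possible for the second set because its drug and saline arrays share no replicate numbers.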
